A study of Caenorhabditis elegans with 2 samples.

Results

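Among 6058 pooled chromatin immunoprecipitation peaks of the Caenorhabditis elegans protein HMG-1.2, 407 (6.72%) had their summit in a coding exon or an untranslated region (UTR) of a protein-coding gene. These were chosen by position alone. The summit, which is the base of highest enrichment, had to lie outside every promoter window, which reached from 500 bp before to 100 bp after each annotated 5′ end of a protein-coding gene, and inside an annotated coding or untranslated exon. A summit that fitted several classes was placed in the 5′ UTR first, then in the 3′ UTR, then in a coding exon. By that order 222 summits lay in coding exons, 138 in 3′ UTRs and 47 in 5′ UTRs, and they fell in 387 host genes.

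The study mapped HMG-1.2 in whole young adult worms of strain RW12210, 65 h old, whose native hmg-1.2 gene on chromosome III carries a TY1, EGFP and 3xFLAG tag (allele st12210) placed there by CRISPR. Bleaching and starvation at the first larval stage had synchronised the animals. The description names an anti-GFP antibody for the pull-down, whereas the antibody field names hmg-1.2. There was 1 group with 2 samples, labelled biological replicates 1 and 2, and the labels leave unsaid whether the cultures were separate. There was thus no second condition to compare with. A whole animal mixes all tissues, and a peak does not show in which cells the protein was bound. The control library was not analysed here.

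HMG-box proteins hold the minor groove of DNA and bend it, and many of them bind with little preference for sequence. Peaks of such factors are usually described at promoters and enhancers, and a summit inside an exon is the less usual case. In worms, many messenger RNAs receive a trans-spliced leader, so an annotated 5′ end need not be the place where transcription starts, and neighbouring genes often lie close together with their 3′ ends facing each other. Both features bear on what a peak in an exon or UTR lies near.

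The sequence under the summit is shown for 8 of 14 windows read at the strongest such peaks called in both replicates, because 5 of the 14 shared a stretch of 9 bases. All 5 windows with that stretch are shown, and every window left out lacks it. Each line gives 30 bases of the host gene's strand with the summit as base 15, read from the reference genome (WBcel235, the same assembly as ce11). Capitals mark the shared 9-mer, CTGCGTCTC, or its reverse complement.
C34C12.2, 5′ UTR: gcgcgatgcaagcgcgctccaccgcacgtg
C05D11.8, 3′ UTR: cacctgtgcggtcgatgcCTGCGTCTCtat
zip-11, 5′ UTR: acctatctCTGCGTCTCtcacgccggcacg
H06I04.6, 3′ UTR: gcgcgtgctgcCTGCGTCTCtcctcctccc
Y53G8B.1, 3′ UTR: gtgtatggggagggGAGACGCAGgcggcgc
F58H7.1, coding exon: CTGCGTCTCtctgctcgccgtgctctctcg
pks-1, coding exon: cttatccaagagactcatctcgtgtccctt
dos-3, coding exon: attatcacccggaatccgtgaacgtggatt
Of the 5 windows with the 9-mer, 3 were in 3′ UTRs, 1 was in a 5′ UTR and 1 in a coding exon. C34C12.2, which gave the strongest peak of all 407, lacked it and held instead the E box letters CACGTG. It was also missing from the windows of pks-1 and dos-3.

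The strongest exonic and UTR peaks stood among the strongest of the whole list. The summit in the 5′ UTR of C34C12.2 (peak chrIII:3456259-3456604, first exon, ce11) had a signal of 2759, the authors' own peak value in an unstated unit, and ranked 42 of 6058. In the replicates' own lists the peak at this place had a signal of 1064 in replicate 1 and 1697 in replicate 2, so it stood high in both. In the 3′ UTR of C05D11.8 (chrIII:6420993-6421384, last exon) the pooled signal was 2378, with 582 in replicate 1 and 1810 in replicate 2. The 5′ UTR of zip-11, a gene for a bZIP transcription factor, held a peak (chrIV:3311257-3311585) of signal 2242, with 738 in replicate 1 and 1522 in replicate 2. The zip-11 summit lay 48 bp outside a promoter window, and those of C34C12.2 and C05D11.8 lay 1989 and 1238 bp outside. These 3 peaks, in UTRs, were the only ones of the 407 among the 100 strongest of the pooled list.

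In coding exons the highest signal was 1509, in the first exon of Y18D10A.4 (chrI:12815778-12816233), but that summit lay only 2 bp outside the promoter window. Next came swt-5, a gene of the SWEET sugar transporter family, with a pooled signal of 726, and 216 and 541 in replicates 1 and 2. Its summit (peak chrV:9503363-9503628, internal exon) lay 77 bp from a tRNA gene on the same strand. In the last exon of F58H7.1 (chrIV:930417-930639) the signal was 567, and it was 221 in replicate 1 and 347 in replicate 2. The peak in pks-1, which encodes a polyketide synthase, lay in an internal exon in the middle of a gene of 28152 bp (chrX:5429420-5429678) and 14696 bp from the nearest promoter window. Its signal was 525 in the pooled list, 347 in replicate 1 and 180 in replicate 2. It ranked higher in replicate 1's thresholded list (324 of 3340) than in replicate 2's (1936 of 5333). The 3′ UTR of ceh-8, a homeobox gene, held a peak of pooled signal 940. It likewise ranked higher in replicate 1's list (signal 635, rank 146) than in replicate 2's (307, rank 1101). The ceh-8 summit lay 216 bp outside a promoter window and 500 to 1000 bp upstream of a 5′ end of col-63. Among the other strong hosts were egl-30 (5′ UTR, signal 424), which encodes a Gq alpha subunit, tent-5 (5′ UTR, 382), a poly(A) polymerase family gene, and dos-3 (coding exon, 324), a gene of the Notch co-ligand family. The tent-5 summit lay only 5 bp outside a promoter window, and that of egl-30 lay 170 bp outside. Neither of these summits was exonic in every annotated transcript spanning it. All peaks of this paragraph were called in both replicates.

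The lists of the replicates differed before any comparison was made. Replicate 1 had 3340 thresholded peaks and replicate 2 had 5333, and their sequencing depth is unknown because the files hold peaks without read totals. Coding exon summits made up 4.34% of replicate 1's list (145 peaks) and 1.13% of replicate 2's (60), while the 5′ UTR share was 0.659% and 0.694%. Summits in coding exons and UTRs together were 244 (7.31%) in replicate 1 and 178 (3.34%) in replicate 2. So replicate 1 held more coding exon peaks although its list was the shorter one, and the part that depth or the threshold of each list has in this was not tested.

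Few of the exonic and UTR peaks were called in both replicates. Only 73 of 407 (17.9%) overlapped a thresholded peak of each replicate by at least 1 bp, against a background of 43.4% over all pooled peaks. The share was 45.2% (2556 of 5651) among all other peaks and 51.1% (638 of 1249) among intron peaks. Both differences passed two-sided Fisher's exact tests (Benjamini-Hochberg over 12 tests, adjusted p = 8.61e-29 and 2.06e-33). Peaks are members of 1 peak set and not replicates, so these p-values describe how the list divides. Replicate 1 alone supported 79 of the 407, replicate 2 alone 81, and 174 (42.8%) overlapped no thresholded peak of either. Among all other peaks the balance was unlike this, with 6.09% in replicate 1 only, 37.9% in replicate 2 only and 10.8% in neither.

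**Figure D1:**
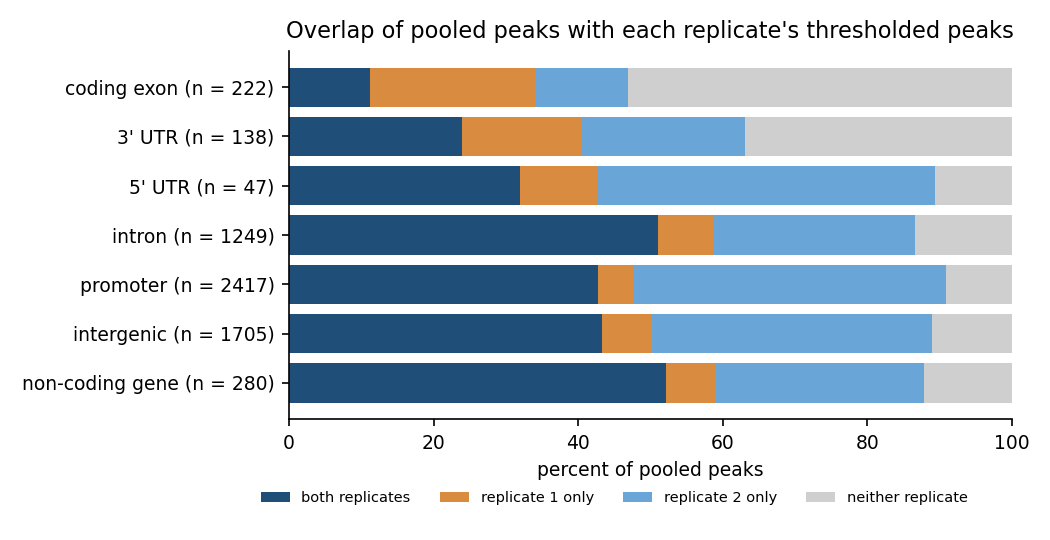
Share of pooled peaks in each class (bars, percent, n beside the name) that overlapped thresholded peaks of both replicates, of 1 replicate only or of neither. Coding exon peaks had the smallest share in both replicates (11.3%) and the largest in neither (53.2%), while 5′ UTR peaks lacked support in 10.6% of cases, as did 9.10% of promoter peaks.

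Absence from a thresholded list was not absence from the replicate. The longer ranked list of replicate 1, with 39515 entries, overlapped 96.6% of the 407 peaks and that of replicate 2, with 27035, overlapped 97.1%. These shares are near those of all other peaks, 92.3% and 98.7%, so they say little that is particular to exons and UTRs. Where a replicate's thresholded list did hold the peak, its summit lay a median of 15 bp away in replicate 1 (152 peaks) and 11 bp in replicate 2 (154). Of the 255 peaks outside replicate 1's thresholded list, 241 overlapped a counterpart in its ranked list, and for replicate 2 it was 241 of 253. The summit distances above do not cover these peaks. The pooled list was made over both replicates, so such overlap with a long list is no independent support. In replicate 1, the counterparts outside the thresholded list had a median signal of 35.8, against 68.8 for those inside it. In replicate 2 the corresponding medians were 41.6 and 86.5.

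The signal of the 407 peaks was low for the list. Their median was 88.2 with quartiles at 71.7 and 123, and the other 5651 had a median of 173. Only 54 (13.3%) stood above the list's median of 163, against 52.6% of all other peaks and 53.6% of intron peaks (Fisher's exact test, adjusted p = 2.88e-57 and 4.85e-50). Among the 300 strongest pooled peaks were 4 in exons or UTRs, and among the 1000 strongest there were 13.

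**Figure D2:**
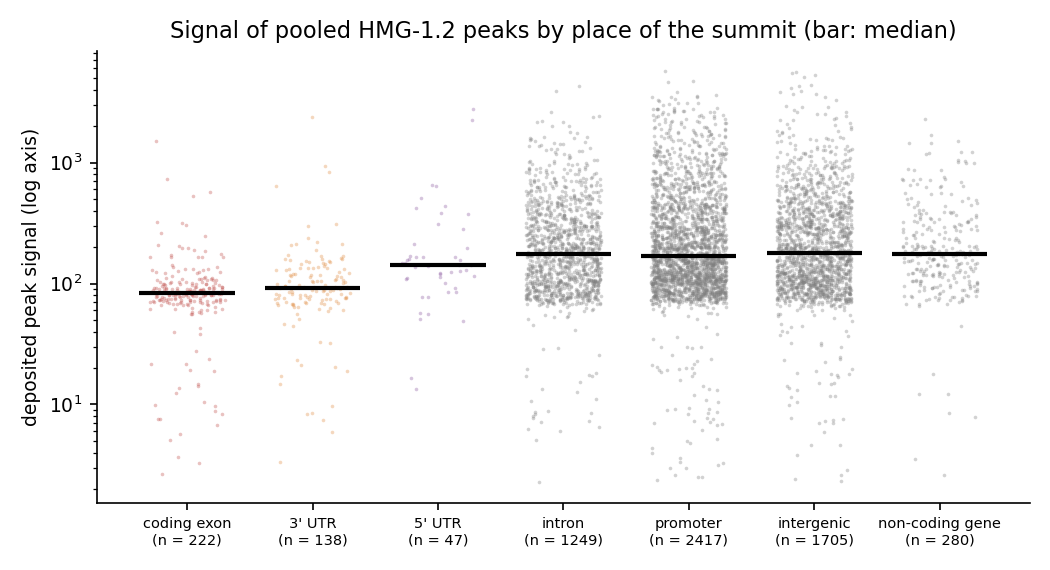
Deposited signal of every pooled peak (1 point each, log axis) by the place of its summit, with the median as a bar. Coding exon (median 83.4) and 3′ UTR peaks (91.8) sat lower than 5′ UTR (143), promoter (169) and intron peaks (177).

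Replicate support moved with signal. Of the 34 exonic and UTR peaks with a signal of 200 or more, a limit chosen after the values were seen, 27 (79.4%) were called in both replicates, beside 80.9% of the other peaks above that limit. In the range from 80 to 120, 36.9% of the 149 exonic and UTR peaks overlapped replicate 1 and 27.5% replicate 2, whereas the other peaks of that range gave 18.3% and 64.1%. Between 50 and 80 the share with neither replicate was 81.1% (86 of 106), beside 63.2% (275 of 435) of the other peaks. The share called in both replicates was not lower from 50 to 200. It was 0.943% beside 0.690% of the other peaks from 50 to 80, 4.70% beside 4.51% from 80 to 120, and 43.8% beside 34.4% from 120 to 200. Under 50 it was lower, at 13.3% beside 22.2%. These shares by range were not tested. Among pooled peaks above the list's median signal, 74.1% of the 54 exonic and UTR peaks and 75.1% of all others had both replicates, and Fisher's exact test no longer separated them (adjusted p = 0.874).

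A summit in an exon or UTR was more often close to another peak. Another summit of the pooled list lay within 1 kb for 139 of 407 (34.2%), against 21.2% of all other peaks and 23.7% of intron peaks (Fisher's exact test, adjusted p = 8.48e-09 and 4.3e-05). In replicate 2's own list the difference from intron peaks did not pass Fisher's exact test (23.0% and 20.4%, adjusted p = 0.425). Much of this came as pairs of overlapping intervals. Of the 407, 64 (15.7%) overlapped another pooled peak, with 199 to 243 bp between the summits of a pair, beside 5.73% of all other peaks. For 38 of the 64 the overlapping peak had the higher signal, and for 42 it was itself in an exon or UTR.

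The weakest entries of the list were mostly such pairs. A deposited −log10 q under 1, that is a q above 0.1, was found for 69 of the 407 (16.95%) and for 3.33% of the other peaks. Of these 69, 42 (60.9%) overlapped another peak, and of the other peaks with so low a value, 150 of 188 (79.8%) did. The convergent genes eef-1A.1, which encodes a translation elongation factor, and F31E3.12 show the pattern. The summit in the last exon of F31E3.12 had a signal of 167, the one in the last exon of eef-1A.1 had 21.5, and they lay 202 bp apart. Both overlapped the same peak of replicate 1 (signal 99.8) and of replicate 2 (77.3), whose summits lay 198 and 97 bp from that of eef-1A.1. In the 3′ UTR of zig-11 a peak of 158 and one of 9.65 lay 200 bp apart in the same way. Without peaks of −log10 q under 1, a choice made after the data were seen, the share with a neighbour within 1 kb was 20.1% for the 338 exonic and UTR peaks left, 16.3% for the others and 20.1% for intron peaks, and neither difference passed Fisher's exact test (adjusted p = 0.0764 and 1).

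**Figure D3:**
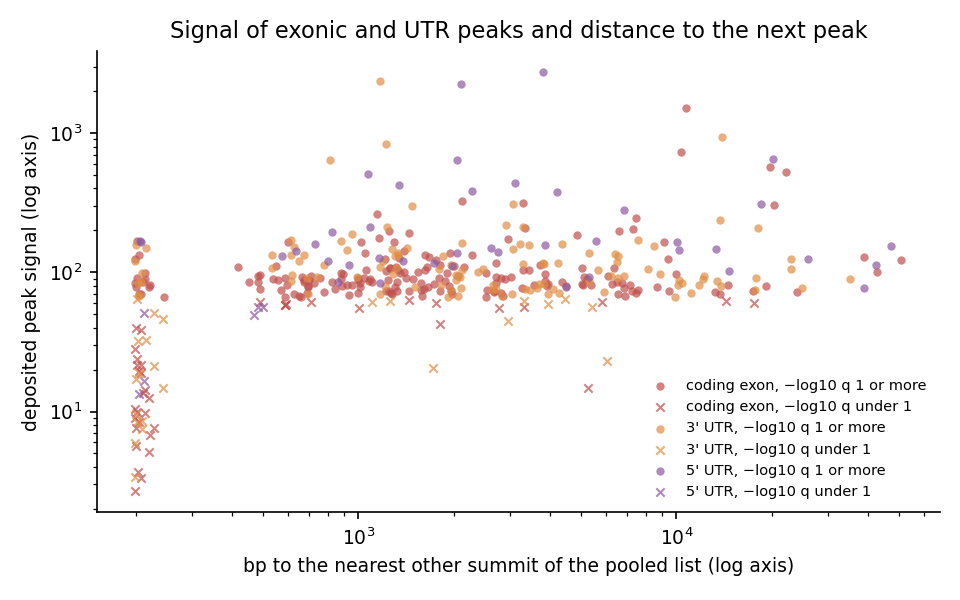
Signal of each of the 407 peaks (log axis) against the distance to the nearest other summit of the pooled list (log axis), with crosses for a −log10 q under 1. A column of weak peaks stands near 200 bp, and the peaks with a signal of 200 or more lie to the right of it.

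The 3 classes were not alike. Called in both replicates were 11.3% of coding exon peaks (25 of 222) and 25.9% of UTR peaks (48 of 185; Fisher's exact test, Benjamini-Hochberg over 3 tests, adjusted p = 0.000224). A signal above the list's median was found for 9.91% of coding exon peaks and 17.3% of UTR peaks (Fisher's exact test, adjusted p = 0.0392). Widening the promoter window to 1000 bp before and 200 bp after a 5′ end ended the latter call (Fisher's exact test, adjusted p = 0.41). In the authors' conservative list, with its own median signal as the limit, neither difference passed (Fisher's exact test, adjusted p = 0.0781 and 0.291). With replicate 2's own list, split at its own median, the signal shares turned round, at 21.7% of 60 coding exon peaks and 18.6% of 118 UTR peaks. Support there was 38.3% and 39.8%. Of the UTR peaks, those in 5′ UTRs differed most from coding exon peaks in their values, with replicate 2 holding 78.7% of them and replicate 1 holding 42.6%. For coding exon peaks the order was the other way, 23.9% in replicate 2 and 34.2% in replicate 1. Peaks in 3′ UTRs lay between, at 46.4% and 40.6%.

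Measured against the sequence on offer, coding exons held few summits. Exon bases outside promoter windows made up 25.3% of the nuclear genome and held 6.72% of the pooled summits. Coding exon bases alone were 21.6% of the genome and held 3.67% of summits. The 3′ UTR share was 2.98% of bases and 2.28% of summits, and the 5′ UTR share was 0.690% and 0.776%. UTR summits therefore came close to the UTR's share of the genome, and the shortfall lay in coding exons. These shares are descriptions without a test.

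Within genes, the summits lay towards the ends. The last exon held 217 of the 407 (53.3%), while last exons made up 24.1% of the exon bases outside promoter windows. Internal exons held 27.5% of summits and 67.2% of bases, and first exons 18.2% and 7.96%. The coding exon peaks showed the same: 37.8% lay in a last exon, against 15.3% of coding bases. Of all 407 summits, 200 (49.1%) were within 500 bp of the end of the host gene, beside 25.3% of exon bases. Nearly all lay in sequence that is exonic in every annotated transcript spanning the summit (369, or 90.7%), beside 96.7% of exon bases.

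Many of these gene ends faced another gene's end. A protein-coding gene on the opposite strand had its 3′ end within 500 bp of the summit for 154 of 407 peaks (37.8%), beside 7.69% of exon bases. Within 3′ UTRs the values were 54.3% of summits and 26.7% of bases, and within coding exons 34.7% and 5.27%. It was commoner among the weaker peaks, being found for 3 of the 34 with a signal of 200 or more (8.82%) and for 151 of the other 373 (40.5%). It was also found for 55.7% of the 79 peaks called in replicate 1 only, 45.2% of those in both, 34.5% of those in neither and 20.99% of the 81 in replicate 2 only. A place 500 to 1000 bp upstream of a protein-coding 5′ end, just beyond the promoter window, was no more than slightly commoner among summits (12.04%) than among exon bases (10.2%). None of these shares was tested.

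**Figure D4:**
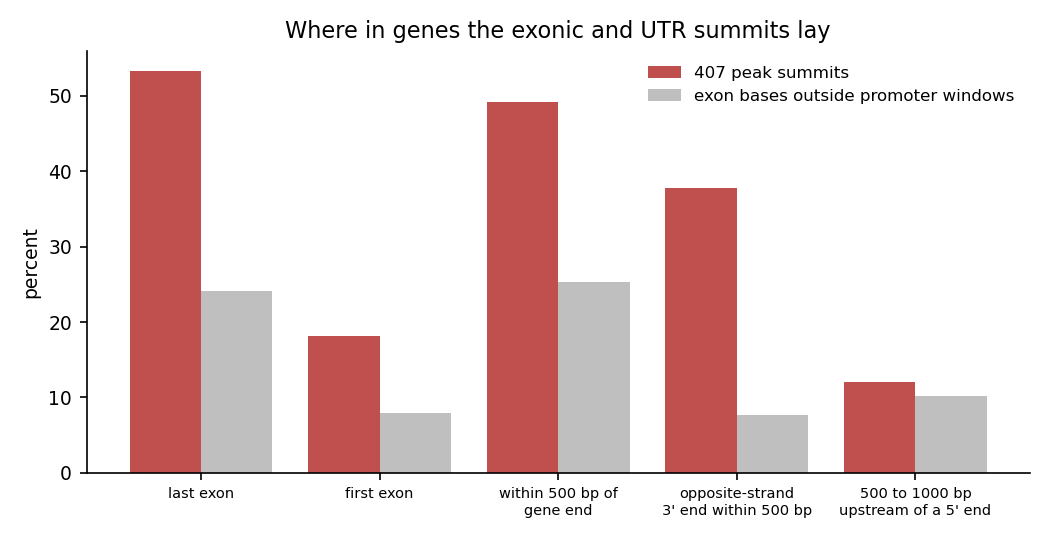
Share of the 407 summits (red bars) and of exon bases outside promoter windows (grey bars, every 10th base) in 5 positions, in percent. Among these 5, opposite-strand 3′ ends within 500 bp show the widest gap, at 37.8% of summits against 7.69% of bases.

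The summits were rich in G and C for their class, but poorer than other peaks. Over the summit and 50 bp on each side of it, the GC content was 47.1% ± 7.34 (SD over 222 peaks) in coding exons, where all such bases averaged 41.2%. In 3′ UTRs it was 38.9% ± 9.49 (n = 138) against 32.2%, and in 5′ UTRs 47.2% ± 8.17 (n = 47) against 37.8%. Over the 407 the mean was 44.3%, below the 47.5% of all other peaks and the 49.6% of intron peaks. The means of coding exon and 5′ UTR peaks were near that of all other peaks, and the mean of 3′ UTR peaks was well below it. A GC content above the list's median of 47.5% was found for 32.4% of exonic and UTR peaks, 48.1% of all others and 56.8% of intron peaks (Fisher's exact test, adjusted p = 1.26e-09 and 2.02e-17). Coding exon peaks were above that median more often (41.0%) than UTR peaks (22.2%, Fisher's exact test, adjusted p = 0.000157). The UTR peaks of this test join 5′ and 3′ UTR peaks, whose means differed as given above. In replicate 1's own list, split at its own median GC content, the shares did not pass (31.0% and 24.2%, Fisher's exact test, adjusted p = 0.311). For pooled peaks above the median signal, GC content was split at the median of those peaks alone. There high GC was found for 37.04% of the 54 in exons or UTRs and 48.0% of all others, which did not pass Fisher's exact test (adjusted p = 0.182). The difference from intron peaks, 57.2%, still passed Fisher's exact test (adjusted p = 0.0339). The 34 peaks with a signal of 200 or more averaged 51.2%, the other 373 averaged 43.7%.

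**Figure D5:**
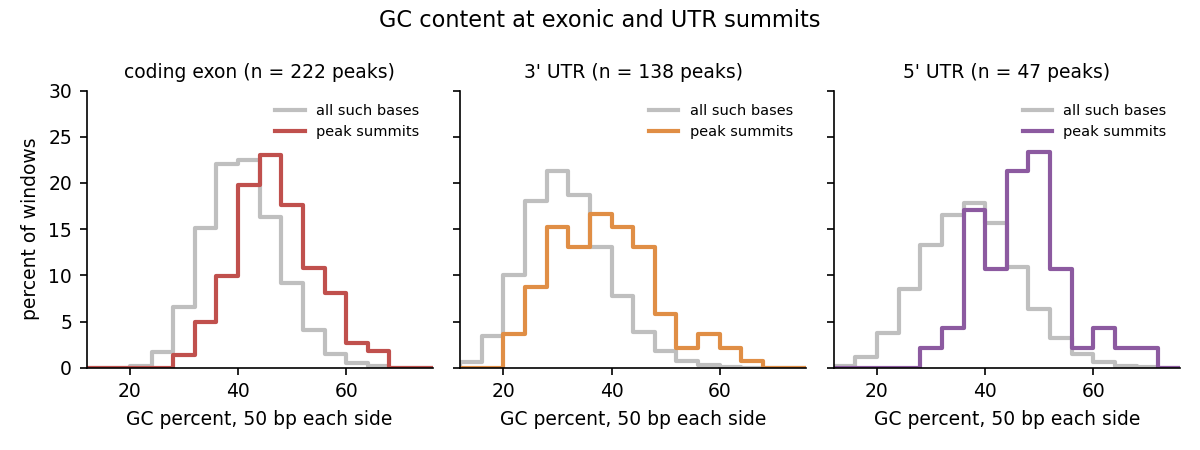
Distribution of GC percent in windows of 50 bp each side at the summits of each class (coloured line) and over all bases of that class outside promoter windows (grey), as percent of windows in bins of 4 points. In each panel the summits lie to the right of the bases, with means of 47.1%, 38.9% and 47.2% for coding exon, 3′ UTR and 5′ UTR peaks.

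The share with the 9-mer shown above was higher among strong peaks. It was chosen as the 9-mer found in the most windows, 5 of 14, with 4 for the next, so those windows are no evidence for it. The shares that follow were read over the summit and 50 bp on each side, a longer window than the 30 bases shown. Among the 393 other exonic and UTR peaks, 20 (5.09%) held CTGCGTCTC on either strand in that longer window. The share of exon windows of the same length with it was 0.0979%. All other pooled peaks gave 20.5% and intron peaks 24.1%. Over all 407 the share was 17.02% in 5′ UTRs (8 of 47), 7.25% in 3′ UTRs (10 of 138) and 3.15% in coding exons (7 of 222). With a signal of 200 or more, and leaving out the 14 windows that chose it, 9 of 20 exonic and UTR peaks held it (45%), beside 30.3% of the other peaks above that limit. Under 200 the shares were 2.95% and 12.8%. Of the 174 peaks that neither replicate's thresholded list held, and of the 79 called in replicate 1 only, it was found in 0, whereas 13 of the 81 in replicate 2 only held it.

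Of the 13 short motifs searched on both strands, the GAGA repeat (GAGAGA) had the widest gap between the summits and all exon windows. Read over the summit and 50 bp on each side, it was found at 72 of 407 summits (17.7%), at 35.8% of all other summits and in 5.51% of exon windows. By class it was found at 46.8% of 5′ UTR summits, 17.4% of 3′ UTR summits and 11.7% of coding exon summits. The last letters of the 9-mer can be the first letters of this repeat, so the matches overlap, as they do in zip-11, H06I04.6 and F58H7.1. The polyadenylation signal AATAAA was found at 37.7% of 3′ UTR summits and in 38.6% of 3′ UTR windows. The SOX site ATTGTT, read by many HMG-box factors, lay at 8.85% of summits, 6.19% of other peaks and in 12.3% of exon windows. A run of T (TTTTTT) was at 18.9% of summits and in 20.3% of exon windows, and the TCF site CTTTGAT was at 0.983% and 2.24%. The E box CACGTG was found at 2.95%, 2.99% and 2.29% of summits, other peaks and exon windows. A match is a description of letters and not a binding site.

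Fewer of the summits than of other peaks lay near genes for small RNAs, but more than of exon bases. Intron bases were not read for this, so the tests compare peaks without regard to where such genes are annotated. A tRNA, snoRNA, snRNA or miRNA gene lay within 200 bp of 12 of the 407 summits (2.95%), beside 0.380% of exon bases, 11.2% of all other peaks and 20.8% of intron peaks (Fisher's exact test against the peaks, adjusted p = 5.09e-09 and 3.18e-21). Of the 12, 7 were tRNA genes, 3 snoRNA genes, 1 an snRNA gene and 1 a miRNA gene. The tRNA neighbours included the strongest of the group. Beside swt-5 they were sur-7 (signal 306), a gene of the cation diffusion facilitator family, W02G9.3 (263), cpg-23 (246), mdf-2 (213), rol-3 (166) and F02E11.7 (159). In all 7 the tRNA gene was on the strand of the host gene. Of these peaks 6 were called in both replicates, and rol-3 in replicate 2 only. The remaining 5 had signals of 133 or less, and none of them was called in both replicates. Among pooled peaks above the median signal, 11.1% of those in exons or UTRs and 16.4% of all others lay this near to a small RNA gene, and Fisher's exact test did not separate them (adjusted p = 0.428). The difference from intron peaks above that median, 30.7%, still passed Fisher's exact test (adjusted p = 0.0198).

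On the X chromosome such peaks were few. It held 21 of the 407 (5.16%), although it carries 15.4% of the exon bases outside promoter windows. Of all other peaks 14.2% were on X and of intron peaks 13.2% (Fisher's exact test, adjusted p = 2.42e-08 and 2.38e-06). Above the median signal the shares on X were 3.70% (2 of 54) and 14.8% of all others, which narrowly missed the threshold of 0.05 (Fisher's exact test, adjusted p = 0.0516). Chromosome I held 97 peaks (23.8%, with 15.9% of exon bases) and chromosome III held 90 (22.1%, with 14.5%). Chromosome II, with 65, was close to its share of bases at 15.97% against 16.5%. Chromosome V held 76 (18.7% against 21.9%).

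Of 17 gene families listed by name, 12 had at least 1 host gene. Over all 19973 nuclear protein-coding genes, 1.94% had such a peak. No peak of this kind was found in any of the 72 histone, 6 vitellogenin, 53 sperm protein, 50 muscle structure or 181 ion channel and receptor genes. Of 1365 genes listed as chemoreceptors 1 was a host, srrt-1. Its place in that list rests on its name alone, and whether it encodes a chemoreceptor was not checked. Of 412 F-box and MATH/BTB genes 1 was a host, fbxb-14, and of 174 cuticle collagens 1, col-95. The col-95 peak had a −log10 q under 1. Among 82 cytosolic ribosomal protein genes there were 5 hosts (6.10%): rpl-3, rpl-27, rpl-19, rps-1 and rps-13. The peak in the 3′ UTR of rpl-3 had a signal of 150 and was called in both replicates, while the other 4 were not.

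Transcription factor and chromatin families had between 1 and 3 hosts each. Of 88 zinc finger, bHLH and bZIP genes 3 were hosts (3.41%, beside 1.94% of all genes): zip-11, hif-1 (signal 82.0), the hypoxia-inducible factor, and atf-7 (73.7), a stress-response factor. Homeobox and patterning genes had ceh-8 and unc-62 (signal 112), 2.22% of 90. Nuclear hormone receptors had nhr-61 (88.4) and nhr-66 (44.8), 0.733% of 273. Of 16 genes listed by name as HMG-box genes, hmg-12 alone (6.25%) held a peak, in a coding exon, with a signal of 99.4. Neither replicate's thresholded list contained that peak. The place of hmg-12 in the list rests on its name, and whether its protein has an HMG box was not checked. Chromatin regulators had 3 of 104 (2.88%): hcp-3, the centromeric histone, with a 3′ UTR summit shared with the facing gene F58A4.6 (146, both replicates), hda-2 (115), a histone deacetylase, and set-25 (110), a histone methyltransferase. Chaperones had 3 of 59 (5.08%): dnj-29 (96.5, both replicates), cct-5 (83.7) and hsp-1 (61.2). Translation factors had eef-2 (58.7) and eef-1A.1, 4.76% of 42, and C-type lectins had clec-87 (121) and clec-264 (111), 0.833% of 240. The peaks in nhr-66, hsp-1, eef-2 and eef-1A.1 had a −log10 q under 1. All shares of this paragraph rest on few genes and were not tested.

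Some hosts belonged to families known for work in the germ line and early embryo. These families were chosen after the hosts had been seen, so their shares are inflated by the choice and have no test. Of 25 genes named mex, puf, oma, pos, spn, gld, fbf or nos, which encode RNA-binding regulators and their partners, 8 were hosts. That is 32%, beside 1.94% of all nuclear protein-coding genes. In spn-4 the 3′ UTR peak had a signal of 130 and was called in both replicates (58.0 and 72.0 in replicates 1 and 2). In mex-6, which like mex-5 encodes a CCCH zinc finger protein of the one-cell embryo, the 3′ UTR peak had 89.6 and was called in replicate 1 only. The peaks in mex-5 (81.2), puf-7 (85.6), oma-1 (64.1), puf-9 (63.8), gld-2 (69.4) and mex-1 (69.6 and 38.4) were called in neither. Those in oma-1 and puf-9 and the weaker one in mex-1 had a −log10 q under 1. Of the 8, 7 had their summit in the 3′ UTR.

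The small RNA, kinesin and eggshell families that follow were also chosen after the hosts had been seen. Their shares are inflated by that choice and have no test, and over all nuclear protein-coding genes 1.94% were hosts. Small RNA pathway genes gave 10 hosts of 46 by name. The Argonaute gene hrde-1 held a coding exon peak of 126 and a 3′ UTR peak of 120, both called in replicate 1 only. The Piwi gene prg-1 held coding exon peaks of 104 and 71.8, the first of them called in replicate 1, and csr-1 one of 79.7, also in replicate 1. Those in mut-16 (79.2) and mut-2 (80.9) were in 3′ UTRs and in neither list. The strongest was ekl-1 (3′ UTR, 299, both replicates). In kinesin, kinetochore and anaphase families 8 of 32 genes were hosts, among them klp-7 (220, both replicates), a microtubule-depolymerising kinesin, mdf-2, a spindle checkpoint gene, klp-18 (130) and klp-19 (84.8 and 60.8). Eggshell and oocyte surface families had 5 of 27, with cpg-23, cpg-2 (163), cpg-8 (86.3), egg-1 (75) and chs-1 (56.7), the chitin synthase of the eggshell. The peak in chs-1 and the weaker one in klp-19 had a −log10 q under 1. The summits in cpg-23 and mdf-2 were among those near a tRNA gene.

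More than 1 such peak was found in 26 genes. The developmental timing gene lin-42, a Period relative, held 2 that were called in replicate 2 only, in a 5′ UTR (signal 441, with 44.2 in replicate 1 and 396 in replicate 2) and in a coding exon (172, with 39.3 and 132). In mnk-1, a kinase gene and the 1 gene with 3 peaks, the signals were 134, 107 and 93.5, and replicate 1 had called all of them. C05D11.8 had a second 3′ UTR peak of 110 that lay 1166 bp from its strong one. In R08C7.12 the peaks had 149 and 116 and both lay in 5′ UTRs, called in replicate 2 only.

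The edge of the promoter window decided some memberships. Within 50 bp outside a window lay 40 of the 407 summits, including 15 of the 47 in 5′ UTRs. The nearest were in cyp-33C3 and mter-4, each 1 bp outside with signals of 138 and 89.3, and in Y18D10A.4. Inside the windows, 295 further exon and UTR summits were left out, with a median signal of 120. The nearest to the edge were gldi-8 and hsp-43, 2 bp inside with signals of 479 and 73.3, and Y49A3A.4, 3 bp inside with 114.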

How the data were processed

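Chromatin immunoprecipitation peaks were deposited per replicate and over both replicates, in ce11 coordinates per the labels; no aligner or peak caller is named in the sources used here. The deposited columns used are the authors' signal (scale not stated), the authors' −log10 q and the authors' score, an irreproducible discovery rate score capped at 1000. Read totals are unknown, so no depth interval is given. The peaks were chosen from the pooled thresholded list, and were placed with Ensembl release 115 (WBcel235) over 19973 nuclear protein-coding genes. The members and lists were chosen with earlier results of these data known. Two-sided Fisher's exact tests (SciPy 1.17.1) compared shares of peaks, with signal and GC content split at the pooled list's median. Where another list or a part of the pooled list was tested, its own median was used. Benjamini-Hochberg adjustment covered 12 tests against other and intron peaks and 3 within the class, at a threshold of 0.05. Exon bases outside promoter windows were read at every 10th base. Named genes were the 20 strongest peaks called in both replicates, the 4 strongest per class, up to 3 hosts per list, the first 5 genes with several peaks and the 3 nearest either side of the window edge. Their sequence windows on chromosome I were not read. Other names were chosen after their values were seen. The statistics were tested on simulated data.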

Additional observations from a re-analysis of the deposited data

How the results depend on the processing

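Of 162 recomputed values, 137 kept their direction and side of the threshold. Signal and GC content were split anew at the median of each list or part of a list used. Keeping the pooled peaks above the median signal (54 in exons or UTRs) changed most: the share called in both replicates differed by -1.05 points from all other peaks and -8.76 from intron peaks, high signal by -14.0 from intron peaks, high GC by -10.9 from all others, small RNA genes by -5.29 from all others, and X by -11.1 and -9.13. There a neighbour within 1 kb turned to -3.96 and -11.9 points, and coding exon minus UTR was -2.27 for replicate support, -22.4 for signal and -8.81, reversed, for GC. The share of the list was 1.78% there. The neighbour difference was 3.83 and 0.00245 points with −log10 q of at least 1, and 0.728 from intron peaks with overlapping peaks left out, both chosen after seeing the data. Coding exon minus UTR was -14.7 (support) and -5.95 (signal) points in the conservative list, and -3.59 (signal) with the wide window.

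With either replicate's own list in place of the pooled one, coding exon minus UTR ranged from -33.5 to -1.50 points for replicate support, from -9.91 to 3.02 for signal (reversed with replicate 2's list, where 60 coding exon peaks were left) and from 6.79 to 24.6 for GC. The neighbour difference from intron peaks ranged from 2.64 to 18.7 points, and the share of the list from 3.34% to 7.31%.

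The GAGA repeat share was 12.5% in 51 bp windows. No paired analysis was possible because there was 1 group. Depth is unknown, and the cause of these changes was not tested.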
